A study of Mus musculus with 24 samples.

Results

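Cd5l, Fabp7, Dmpk, Fam167a and Treml4 are 5 genes that Kupffer cells (KCs), the resident macrophages of the liver sinusoids, transcribe. They were taken by symbol from the deposited count tables, 5 of 48337 symbols named once in each of the 4 tables, and were chosen by their low level in liver macrophages of mice that lack GDF2 and BMP10 or Smad4 and in whole livers of the former. Since the macrophage and liver values chose the genes, these values are a description, with no test. The description also goes against the choice for 1 of them, since Treml4 was not lower in Smad4-deficient macrophages than in control macrophages.

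GDF2 (also called BMP9) and BMP10 are circulating ligands of the receptor ALK1, whose signal is carried to the nucleus by receptor-activated SMADs together with the common partner SMAD4. In the liver, hepatic stellate cells (HSCs) make both ligands. KCs and sinusoidal endothelial cells (ECs) carry the receptor. KCs take up particles, lipids and dying cells from portal blood, and their identity depends on signals from the surrounding HSCs, ECs and hepatocytes.

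Bulk RNA-seq covered 24 mouse libraries in 8 groups of 3. Gdf2/Bmp10 HSC-KO mice carry floxed Gdf2 and floxed Bmp10, both deleted by LratCre, which is active in HSCs, and were set against control mice. Smad4 cKO mice carry floxed Smad4, deleted by Vav1Cre in hematopoietic cells as a whole and not in KCs alone, and were set against Smad4 fl/fl mice, so that the control mice of this experiment bear the floxed alleles too. Macrophages, gated as CD45+Ly6C-F4/80+CD64+, were sorted from both kinds of mutant and from their own controls, ECs, gated as CD45-CD31+, from HSC-KO and control mice, all aged 8 to 10 weeks, and whole livers came from HSC-KO and control mice aged 12 weeks. By the animal codes in the labels, 3 mice gave both a macrophage and an EC library, whereas the liver libraries came from other mice.

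Each library held 60911527 to 110879155 counts in total. Gdf2 was at 12.6 to 22.9% of its control mean in the HSC-KO livers and Bmp10 at 3.52 to 9.82%, as the labels have it. Smad4 was at 31.9 to 43.7% of its control mean in the Smad4 cKO macrophages, and the counts, given per gene, do not show how much of this came from the floxed exons. Over all genes, EC HSC-KO replicate 1 lay nearer to the control ECs (mean correlation 0.907) than the other HSC-KO EC libraries (0.876 and 0.869), and EC results are therefore also given without it. In each group, 5 to 17 genes were listed at 0 in 1 library while another library of the group held at least 1000 counts, none of them 1 of the 5 genes, so that a 0 in these tables is not always a matter of depth.

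In GENCODE vM21 (GRCm38), Cd5l lies at chr3:87357881-87371073, Fabp7 at chr10:57784881-57788450, Dmpk at chr7:19083849-19093821, Fam167a at chr14:63436394-63465498 and Treml4 at chr17:48264295-48275360, all protein-coding and all on the plus strand. No exon of any of them overlaps an exon of another gene there. Cd5l encodes a secreted scavenger-receptor cysteine-rich protein of tissue macrophages, also known as AIM. Fabp7 encodes a fatty acid binding protein best known from glia, and Dmpk a serine/threonine kinase best known from muscle, where a repeat expansion in its human counterpart causes myotonic dystrophy. Treml4 encodes a TREM-like receptor of macrophages and dendritic cells, and Fam167a a small protein whose role is poorly known.

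The stretch before the transcription start is shown for Cd5l and Fabp7, whose level was far lower in both macrophage mutants, and for Treml4, which was lower in 1 of them, so that they can be compared. Sequences are from RefSeq (GRCm38.p6), where 4 of the 5 genes were matched in the table used, and that of Fam167a was not analysed here. They are given 5′ to 3′ on the plus strand up to the first base that either annotation places in the gene, chr3:87357631-87357880 for Cd5l, chr10:57784673-57784880 for Fabp7 and chr17:48264045-48264199 for Treml4, whose RefSeq record begins at 48264200, upstream of the start site at 48264295 from which positions are counted. Capitals mark a match, on either strand, to 1 of 7 short motifs: GGCGCC and CAGACA (Smad), GAGGAA (PU.1), TGCTGA (Maf), AGGTCA (nuclear receptors), TGGGAA (Rbpj) and CACGTG (E-box).
Cd5l: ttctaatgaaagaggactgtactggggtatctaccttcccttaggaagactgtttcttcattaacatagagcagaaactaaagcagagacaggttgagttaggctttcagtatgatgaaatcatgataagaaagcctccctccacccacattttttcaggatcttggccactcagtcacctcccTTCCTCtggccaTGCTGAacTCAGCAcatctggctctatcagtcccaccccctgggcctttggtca
Fabp7: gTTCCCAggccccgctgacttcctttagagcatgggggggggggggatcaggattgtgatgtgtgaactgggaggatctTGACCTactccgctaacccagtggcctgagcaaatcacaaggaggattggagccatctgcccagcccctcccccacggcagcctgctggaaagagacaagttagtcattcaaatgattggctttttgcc
Treml4: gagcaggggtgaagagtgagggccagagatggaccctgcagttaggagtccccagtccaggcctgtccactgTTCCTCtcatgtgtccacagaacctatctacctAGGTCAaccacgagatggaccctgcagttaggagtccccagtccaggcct

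Neither Smad motif and no E-box occurred in the 250 bases before the start site that the promoter table gives for Cd5l, Fabp7, Dmpk or Treml4. Only 38 of these bases for Dmpk, 155 for Treml4 and 208 for Fabp7 lie before the first base that either annotation places in the gene. Over 27025 promoters of the same length, 9.54% held GGCGCC, 17.1% CAGACA and 6.05% CACGTG. Cd5l carried TGCTGA on both strands, starting at positions -54 and -46 from the start site, close enough to face each other across a few bases, and GAGGAA on the minus strand at -66. Fabp7 carried TGGGAA at -249 and AGGTCA at -171, both on the minus strand, and TGCTGA at -9, in bases that are not printed. Treml4 carried AGGTCA at -145, GAGGAA at -178 and -87 and TGGGAA at -60, of which the last 2 lie in bases that are not printed, and Dmpk carried none of the 7. TGCTGA was in 15.8% of all promoters, AGGTCA in 13.8%, TGGGAA in 21.5% and GAGGAA in 23.1%, and these matches are letters in a window, not shown sites of binding.

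In control macrophages, the 5 genes spanned a wide range of abundance. Per kilobase of exon, Cd5l was at 5802 ± 471 CPM (counts scaled to a fixed library size, here by the library total, mean ± SD, n = 3), Treml4 at 264 ± 29.9, Fabp7 at 137 ± 27.7, Dmpk at 64.2 ± 6.41 and Fam167a at 21.1 ± 2.67 in the controls of the HSC-KO experiment. The order was the same in the Smad4 fl/fl controls, at 4126, 292, 109, 63.4 and 10.1 CPM per kilobase. Between the 2 control groups the difference was largest for Fam167a, 1.05 higher on the log2 scale in the controls of the HSC-KO experiment (standard error 0.57, over 12 macrophage libraries). This is given with no test, and the experiment and the control genotype cannot be told apart.

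In macrophages of HSC-KO mice, Cd5l, Fabp7, Dmpk and Fam167a were left at 0.0352 to 0.355% of their control level and Treml4 at 24.8%. In all 5, every HSC-KO library lay below every control library, as it did for 19.6% of the 16337 genes tested. A log2 fold change below -4 was reached by 4 of the 5 and by 1.36% of the genes tested, and both figures only describe how the genes were chosen. The plot of levels by library shows these values beside the other groups.

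**Figure D1:**
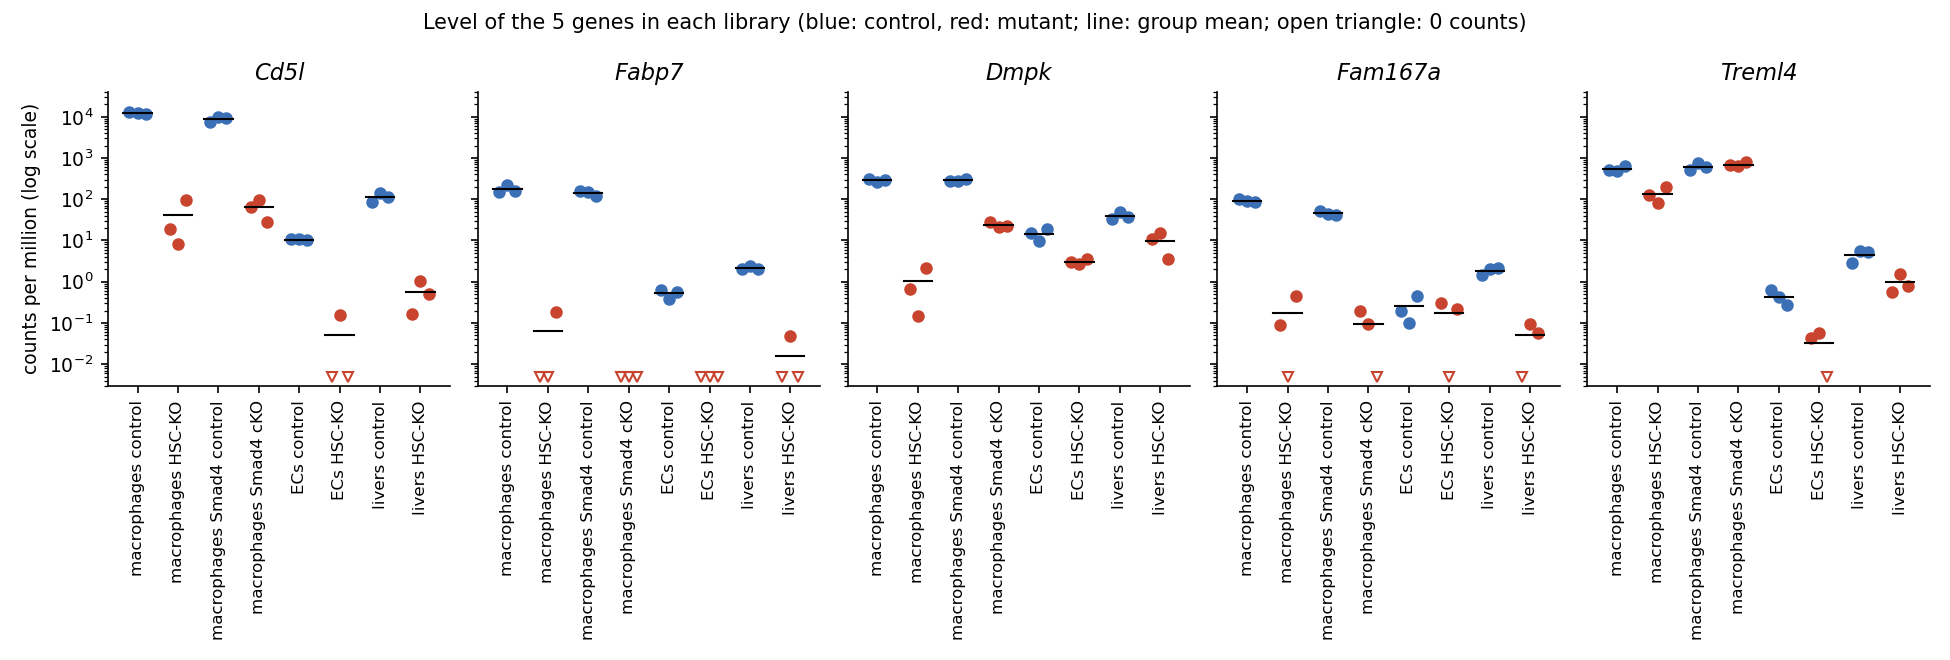
CPM of each gene in every library, on a log scale, in the 8 groups of 3 (blue, control, and red, mutant), with a line at each group mean and open triangles for 0 counts. Cd5l, Fabp7, Dmpk and Fam167a dropped far below their controls in both macrophage mutants, whereas Treml4 stood at 637 to 793 CPM in Smad4 cKO macrophages and at 506 to 751 CPM in their controls.

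Cd5l had 1079104, 1025131 and 666565 counts in control replicates 1, 2 and 3, against 1635, 795 and 8799 in HSC-KO replicates 1, 2 and 3. This was a fall from 12156 ± 559 to 41.1 ± 48.1 CPM, leaving 0.338% of the control mean (log2 fold change -8.21, standard error 1.03). A transcript that took up over 1% of all counts in control macrophages was thus left at a moderate level, which differed more than 10-fold between HSC-KO libraries.

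Fabp7 counts were 12690, 18572 and 9209 in the controls and 17 in HSC-KO replicate 3, with 0 in both others. Dmpk counts were 25766, 22094 and 16785 in the controls and 60, 14 and 202 in HSC-KO replicates 1, 2 and 3, a fall from 286 ± 23.1 to 1.01 ± 1.07 CPM, or to 0.355% (log2 fold change -8.14, standard error 0.85). Fam167a counts were 8633, 7703 and 4898 in the controls and 8, 0 and 40 in the mutants, a fall from 92.8 ± 8.42 to 0.176 ± 0.231 CPM, or to 0.190% (log2 fold change -9.03, standard error 0.82). The remainders of these genes were thus of 0 to 202 counts in libraries of 85936078 to 93926928 counts, and Fabp7 kept the smallest share, 0.0352% of 177 ± 36.9 CPM (log2 fold change -11.44, standard error 0.79).

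Treml4 counts were 42829, 41935 and 36105 in the controls and 11062, 7737 and 17987 in HSC-KO replicates 1, 2 and 3. Its level fell from 544 ± 75.9 to 135 ± 58.4 CPM, so that 14.9 to 36.2% was left in single libraries (log2 fold change -2.01, standard error 0.31). It was the only 1 of the 5 to remain an abundant transcript in HSC-KO macrophages.

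The 3 HSC-KO libraries kept the same order for all 5 genes, with replicate 3 highest, replicate 1 next and replicate 2 lowest, apart from the tie at 0 of Fabp7. Replicate 3 was also the highest HSC-KO library for 18 of 24 other KC genes, among them the lectin Clec4f, the phosphatidylserine receptor Timd4 and the complement receptor Vsig4, and for 50.5% of the 823 genes called lower that had a count in some HSC-KO library. Without replicate 3 the log2 fold change was -9.82 for Cd5l, -9.44 for Dmpk, -10.99 for Fam167a and -2.39 for Treml4, and Fabp7 had no count left. The mean level of Cd5l, Dmpk and Fam167a left in HSC-KO macrophages therefore rested mainly on this 1 mouse. By the animal codes in the labels, the same mouse gave EC HSC-KO replicate 1, the HSC-KO EC library nearest to the control ECs.

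In Smad4 cKO macrophages, Cd5l was left at 0.714% and Fam167a at 0.213% of the control level, Fabp7 was at 0, Dmpk was lowered less and Treml4 was not lowered. Every cKO library lay below every control library for 4 of the 5, as for 14.5% of the 17517 genes tested. A log2 fold change below -4 was found for 3 of the 5, Cd5l, Fabp7 and Fam167a, and for 0.457% of the genes tested.

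Cd5l had 738438, 880140 and 957029 counts in Smad4 control replicates 1, 2 and 3 and 6452, 11159 and 2294 in cKO replicates 1, 2 and 3. It fell from 8873 ± 1122 to 63.3 ± 34.5 CPM, leaving 0.714% (log2 fold change -7.13, standard error 0.51). Fabp7 counts went from 15701, 13436 and 12526 to 0 in all 3 cKO libraries, at least 4665-fold lower when each is set at a floor of 3 counts. Fam167a counts were 4906, 3905 and 4394 in the controls and 19, 11 and 0 in cKO replicates 1, 2 and 3, leaving 0.213% of 45.4 ± 4.42 CPM (log2 fold change -8.81, standard error 0.65, or -9.70 without cKO replicate 1). For these 3 genes the level left was under 1% of the control mean in both mutants.

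Dmpk counts were 27065, 25715 and 31616 in the Smad4 controls and 2737, 2465 and 1831 in cKO replicates 1, 2 and 3. The level went from 290 ± 14.5 to 23.8 ± 3.85 CPM, and the cKO libraries kept 7.32 to 9.73% of the control mean, a narrow range (log2 fold change -3.61, standard error 0.16). Treml4 counts were 49082, 67878 and 60984 in the controls and 64152, 73941 and 66422 in the cKO libraries. Its level was 616 ± 125 CPM in the controls and 697 ± 84.1 CPM in the mutants, the groups overlapped, and the log2 fold change was 0.18 (standard error 0.17). Over the 13 ways of fitting this comparison the value for Treml4 stayed between 0.04 and 0.34, so it was below 0 in none of them.

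**Figure D2:**
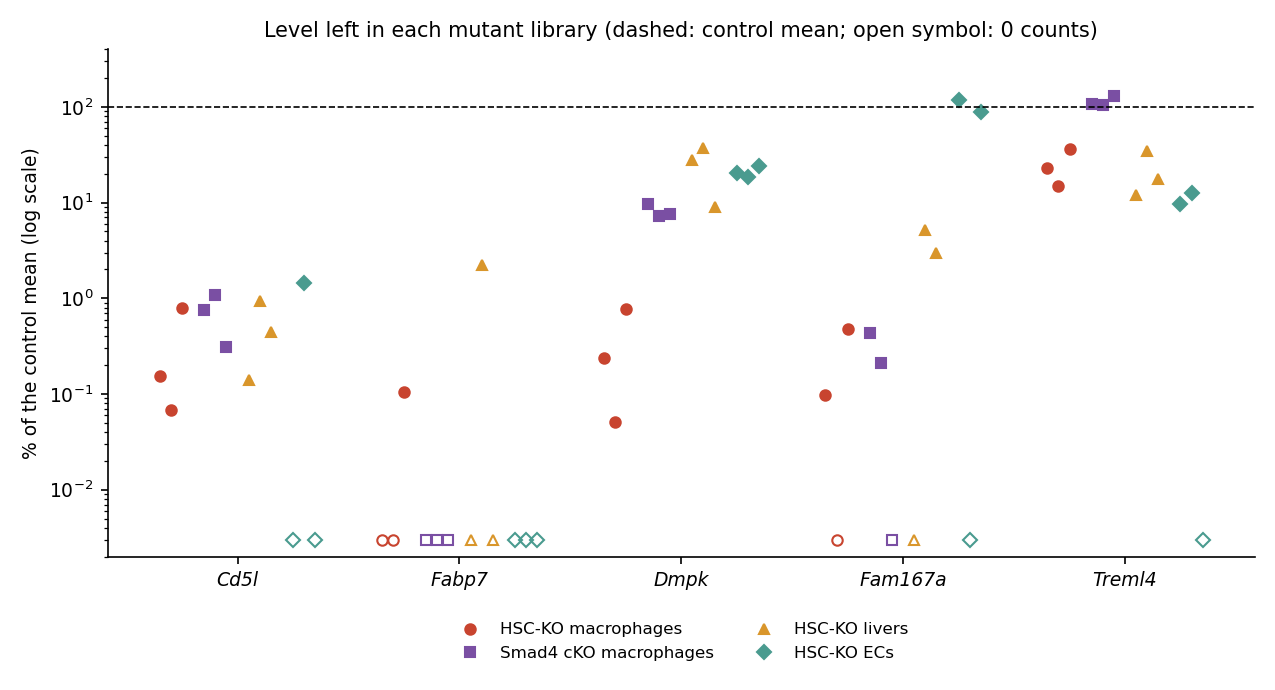
Level left in each mutant library as a percentage of the mean of its own controls, on a log scale, for HSC-KO macrophages, Smad4 cKO macrophages, HSC-KO livers and HSC-KO ECs (open symbols, 0 counts). Dmpk kept 7.32 to 9.73% in Smad4 cKO macrophages and 0.0513 to 0.774% in HSC-KO macrophages, and Treml4 kept 103 to 129% and 14.9 to 36.2%.

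The depths of loss in the 2 mutants were set against each other as the interaction of experiment and genotype, fitted with edgeR over the 12 macrophage libraries. Since both depths chose the genes, the differences of the 5 are a description, with no p. For Dmpk the log2 fold change in HSC-KO macrophages was lower than that in Smad4 cKO macrophages, with a difference of -4.48 (standard error 0.79), and from -5.78 to -3.96 over 20 ways of fitting. For Treml4 the difference was -2.14 (standard error 0.38), and from -2.52 to -1.88 over the same 20.

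For Cd5l the difference was -1.03 (standard error 0.96), and -2.63 without HSC-KO macrophage replicate 3. For Fam167a it was -0.18 (standard error 1.17), ranging from -2.14 to 0.71, and Fabp7, at 0 in 5 of the 6 mutant libraries, gave no usable fold. These standard errors are wide beside those of Treml4.

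Set directly against each other, again as a description, HSC-KO macrophages held less Dmpk than Smad4 cKO macrophages (log2 difference -4.48, standard error 0.62) and less Treml4 (log2 difference -2.30, standard error 0.28). The difference was -0.55 for Cd5l (standard error 0.68), or -2.16 without HSC-KO macrophage replicate 3, and 0.87 for Fam167a (standard error 0.94). Fabp7 rested on the 17 counts of HSC-KO macrophage replicate 3 against 0 in the other 5 libraries. The mutants belong to different experiments, and experiment and genotype cannot be told apart in this contrast.

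**Figure D3:**
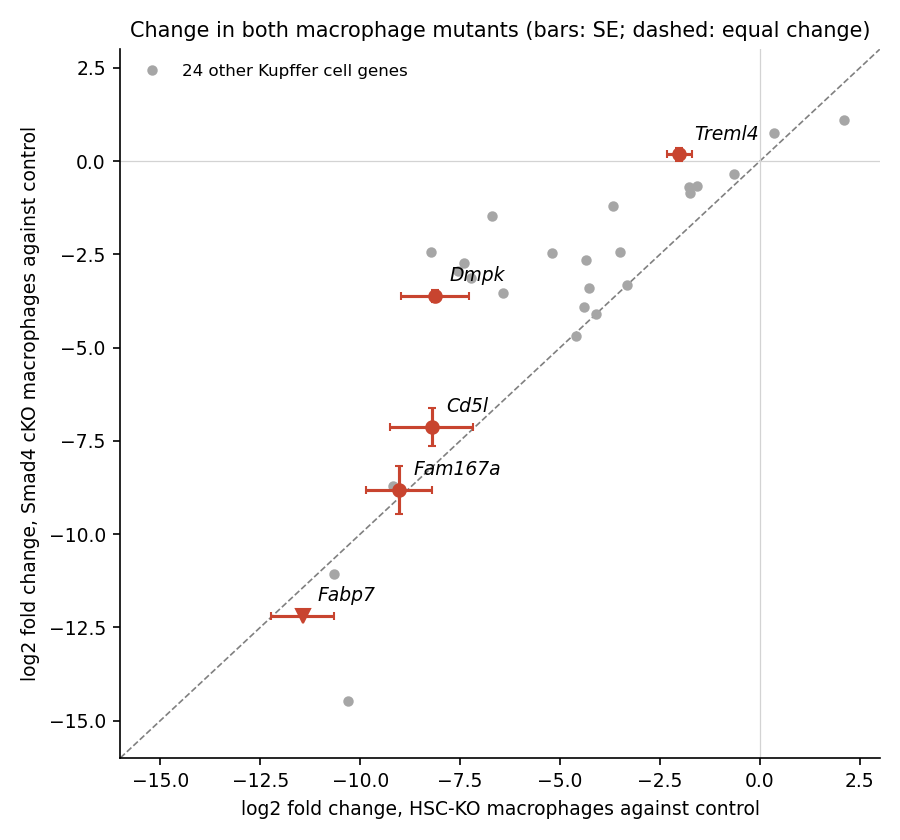
Log2 fold change in HSC-KO macrophages (horizontal) against that in Smad4 cKO macrophages (vertical), with standard errors, for the 5 genes (red; triangle, bound for Fabp7) and 24 other KC genes (grey); the dashed line marks equal change. Cd5l and Fam167a lie within 2 standard errors of the line, and Dmpk and Treml4 lie above it, that is, with the smaller loss in Smad4 cKO macrophages.

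The remaining Smad4 transcript in the cKO macrophages was given above, and its part in the smaller change of Dmpk and Treml4 was not tested. In the same libraries Clec4f was left at 143, 4 and 16 counts from 1162278, 1373018 and 1188682 counts in Smad4 control replicates 1, 2 and 3, which is 0.0114% of the control mean or less, and Fabp7 was at 0. EC transcripts also differed between the experiments. The summed level of 12 EC genes was 265 to 603 CPM in the controls and 32.4 to 105 CPM in the mutants of the HSC-KO experiment, and 778 to 2436 and 1773 to 2296 CPM in the Smad4 experiment. Their part in the difference of Dmpk and Treml4 between the mutants was not tested.

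In the macrophage gate, the summed levels of genes listed for monocytes and for lymphocytes differed with the genotype in the HSC-KO experiment. The paper proposes that KCs of embryonic origin gave way to monocyte-derived macrophages in HSC-KO livers. Monocyte genes need therefore not stem from other cells than the sorted macrophages, which was not tested. The summed level of 7 monocyte genes ran from 126 to 214 CPM in the controls of the HSC-KO experiment and from 1416 to 2142 CPM in its mutants, and from 149 to 189 CPM and 656 to 921 CPM in the Smad4 experiment. Most of the mutant sums was the chemokine receptor gene Cx3cr1, at 24.7 ± 5.81 and 1697 ± 342 CPM in the HSC-KO experiment and at 10.5 ± 1.16 and 742 ± 144 CPM in the Smad4 experiment. In HSC-KO macrophages 4 of the 6 genes tested were called higher and 1, Plac8, lower. Over all genes, 1032 of the 16337 tested were called higher there. In Smad4 cKO macrophages 1 of 7 was called higher and 1, again Plac8, lower (median log2 fold change -0.50), and over all genes 484 of the 17517 tested were called higher. For 8 T and NK cell genes the summed level was 7.02 to 22.6 CPM in the controls and 50.7 to 186 CPM in the mutants of the HSC-KO experiment, where 6 of the 8 were called higher. In the Smad4 experiment it was 63.7 to 165 CPM and 65.6 to 295 CPM, with 0 of the 8 called. For 8 B cell genes the summed level was 104 to 149 CPM and 222 to 247 CPM in the HSC-KO experiment, with 1 of the 8 called higher. In the Smad4 experiment it was 129 to 189 CPM and 222 to 233 CPM, with 1 called higher and 1 lower. The part of the monocyte and lymphocyte transcripts in the loss of the 5 genes was not tested. The 16 pan-macrophage genes together held 43440 to 45410 CPM in the controls, against 38260 to 43650 CPM in the HSC-KO libraries, and per count of these genes 0.385% of Cd5l, 0.403% of Dmpk, 0.218% of Fam167a and 27.6% of Treml4 was left. In the Smad4 experiment the same genes held 48040 to 56810 CPM in the controls and 33470 to 41720 CPM in the cKO libraries, 3 of 16 being called lower, and per count of them 1.02% of Cd5l, 11.2% of Dmpk and 0.299% of Fam167a was left. For each 1000 counts of these genes, Treml4 had 10.2, 13.2 and 12.3 counts in the controls and 17.4, 19.0 and 19.0 in cKO replicates 1, 2 and 3. On this scale every cKO library was above every control (155% of the control mean), whereas in CPM the groups overlapped. Lyz2, 1 of the 16 genes, went from 13090 ± 1303 to 5839 ± 1264 CPM in the Smad4 experiment, so this scale also reflects a fall of its denominator. The glial genes Sox10, Foxd3 and Cdh19 were at 0 in all 12 macrophage libraries, where the summed level of 5 glial genes was at most 0.509 CPM and that of 5 smooth muscle genes ran from 0.954 to 3.33 CPM.

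Among 24 other KC identity genes, 21 were called lower in HSC-KO macrophages (median log2 fold change -4.38 over the list and 0.04 over all genes; 5.34% of genes tested were called lower) and 18 in Smad4 cKO macrophages (median -2.69, against 0.04; 2.67%). Of the 24, 8 had a deeper loss in HSC-KO macrophages by the interaction test (1.18% of the 18149 genes tested did) and 0 a deeper loss in Smad4 cKO macrophages. Clec4f lay in the latter direction without passing that test (interaction 4.23, standard error 1.13, adjusted p = 0.0738). It was left at 0.0795% in HSC-KO macrophages and at 0.00439%, or 4 to 143 counts, in Smad4 cKO macrophages. Vsig4 differed to a degree near that of Dmpk, falling from 3602 ± 192 CPM to 24.1 ± 21.2 CPM in HSC-KO macrophages and from 3055 ± 268 CPM to 351 ± 23.1 CPM in Smad4 cKO macrophages (interaction -4.06, standard error 0.66, adjusted p = 0.00862). The transcriptional regulators Id1 and Id3, direct targets of BMP signalling, differed in the same direction (-4.58 and -5.74, adjusted p = 0.0113 and 0.000465). Of 8 BMP target genes, 7 were called lower in HSC-KO and 6 in Smad4 cKO macrophages, and 3, Id1, Id3 and Smad6, had the deeper loss in HSC-KO macrophages. Cxcl13, a B cell chemokine, Cd207, a lectin, and Folr2, a folate receptor, did not pass that test, with differences of 0.48, -0.43 and 0.13.

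In whole livers, where other mice were used, every HSC-KO liver lay below every control liver for all 5 genes, as for 10.9% of the 17118 genes tested. Since the liver values took part in the choice of the genes, they are a description, with no p, and nothing is read from this count. In bulk tissue, fewer cells of a type and less RNA per cell cannot be told apart.

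Cd5l counts were 9430, 10814 and 10480 in the control livers and 12, 89 and 36 in HSC-KO liver replicates 1, 2 and 3. The level fell from 114 ± 27.8 to 0.574 ± 0.453 CPM, leaving 0.503% (log2 fold change -7.62, standard error 0.62, and from -8.43 to -7.18 over 14 ways of fitting). The fatty acid binding protein gene Fabp7 had few counts, which were 220, 188 and 184 in the control livers and 0, 4 and 0 in the mutants (log2 fold change -6.87, standard error 0.86). With remainders of 0 to 89 counts, the share left of these genes is known only roughly.

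Fam167a counts were 159, 154 and 191 in the control livers and 0, 8 and 4 in HSC-KO liver replicates 1, 2 and 3 (log2 fold change -5.14, standard error 0.80, and from -6.00 to -4.58 over the 14 ways). Dmpk counts were 3648, 3822 and 3279 in the controls and 833, 1255 and 257 in the mutants, with mean levels of 39.7 ± 8.88 and 9.89 ± 5.78 CPM, and HSC-KO liver replicate 3 the lowest library (log2 fold change -2.00, standard error 0.46, and from -2.43 to -1.56 over the 14 ways).

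Treml4 counts were 310, 423 and 474 in the control livers and 41, 131 and 57 in the mutants, at 4.52 ± 1.49 and 0.967 ± 0.527 CPM. The log2 fold change was -2.22 (standard error 0.45), and -2.75 without HSC-KO liver replicate 2, the lowest value of the 14. Of the level of Dmpk and Treml4, 24.9% and 21.4% was left, against 0.503% of that of Cd5l. For all 5 genes HSC-KO liver replicate 2 was the highest of the mutant livers, as it was for 13 of the 23 other KC genes with a count there and for 53.5% of the 230 genes called lower that had a count in some HSC-KO liver.

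The pan-macrophage genes were lower in HSC-KO livers as well, 6 of 16 being called (1.45% of all genes tested were; median log2 fold change -1.17), with a summed level of 434 to 676 CPM in the controls, against 179 to 340 CPM in the mutants. Per count of these genes, 1.06% of Cd5l, 1.19% of Fabp7, 5.91% of Fam167a, 48.5% of Dmpk and 46.0% of Treml4 was left, and for each gene all mutant livers were still below all control livers on this scale, which was not tested. The change of Dmpk and Treml4 in livers was thus about 2-fold relative to these 16 genes, and their log2 values moved from -2.00 to -1.04 and from -2.22 to -1.12. The sum is not a measure of macrophage RNA alone, since Mpeg1 and Mertk stood at 8.73 and 9.43% of the macrophage level in control livers (median of the list 1.15%). Single genes of the list also differed. In HSC-KO livers Csf1r was left at 22.3%, Adgre1 at 30.4%, Cd68 at 44.2% and Fcgr1 at 45.6%.

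**Figure D4:**
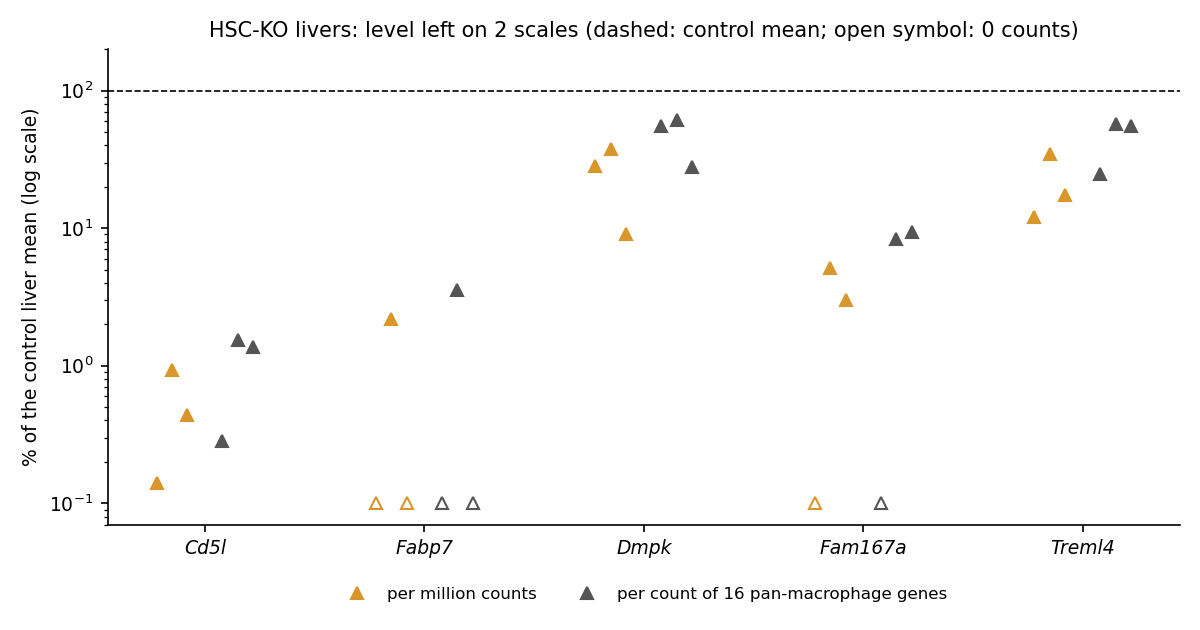
Level left in each HSC-KO liver as a percentage of the control liver mean, on a log scale, in CPM (orange) and per count of 16 pan-macrophage genes (grey; open symbols, 0 counts). On the second scale Cd5l kept 1.06% on average and Dmpk and Treml4 48.5 and 46.0%.

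The control level in livers was also set against that in control macrophages, with each library scaled to its own total and the tables normalized separately. The liver level was 1.00% of the macrophage level for Cd5l, 0.889% for Treml4, 1.31% for Fabp7 and 2.13% for Fam167a, and the median of the 16 pan-macrophage genes was 1.15% (range 0.435 to 9.43%). For Dmpk it was 14.8%, above all 16 of these genes. In control ECs, Dmpk was at 4.80% of its macrophage level, Fabp7 at 0.280%, Fam167a at 0.250%, Cd5l at 0.0805% and Treml4 at 0.0765%, beside a pan-macrophage median of 0.137%.

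In sorted ECs, the 5 genes were at low levels, and Cd5l, Fabp7, Dmpk and Treml4 were called lower in HSC-KO mice (6.01% of the 16053 genes tested were). Every HSC-KO library lay below every control library for these, as for 20.2% of genes. Cd5l, Fabp7 and Treml4 entered the test through the control libraries, since at most 1 mutant library held over 10 counts. No weight is therefore put on the number of calls or on the adjusted p of these genes. With all genes of at least 1 count tested, the adjusted p was 0.00123 for Cd5l, 0.00755 for Fabp7, 0.000975 for Dmpk and 0.0755 for Treml4. Cd5l counts were 874, 666 and 743 in the controls and 0, 11 and 0 in the mutants (log2 fold change -7.77, standard error 0.99, adjusted p = 0.0017, and 0.00155 without EC HSC-KO replicate 1; range 0.000269 to 0.00857). Fabp7 counts were 52, 23 and 42 in the controls and 0 in all 3 mutants, at least 14.3-fold lower at a floor of 3 counts per library.

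Dmpk had 1256, 618 and 1388 counts in the control ECs and 281, 196 and 288 in the HSC-KO ECs. Its level was 14.7 ± 4.46 CPM in the controls and 3.08 ± 0.402 CPM in the mutants (log2 fold change -2.26, standard error 0.27, adjusted p = 0.00124, and 0.00342 without EC HSC-KO replicate 1; range 2.51e-13 to 0.00813). Treml4 counts were 51, 26 and 20 in the controls and 4, 4 and 0 in the mutants (log2 fold change -3.69, standard error 1.02, adjusted p = 0.0399), and this call held in 5 of 14 settings. Leaving out any 1 of the 6 EC libraries ended it, with adjusted p from 0.0688 to 0.141. Fam167a counts were 16, 6 and 34 in the controls and 28, 0 and 18 in the mutants, and the groups overlapped (log2 fold change -0.53, standard error 1.20, adjusted p = 0.81, and 0.66 without EC HSC-KO replicate 1).

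Of the 16 pan-macrophage genes, 9 of the 15 tested were called lower in HSC-KO ECs, and their summed level was 372 to 448 CPM in control and 150 to 226 CPM in HSC-KO ECs. Most of the sum was Mertk, an efferocytosis receptor (254.8 ± 55.7 and 80.8 ± 22.4 CPM), and Fcer1g, an Fc receptor adaptor (82.2 ± 9.59 and 82.8 ± 17.8 CPM). Mertk stood at 70.7% and Fcer1g at 6.86% of the macrophage level in control ECs, far above the median of the list, so the sum is not a measure of macrophage RNA there. The complement gene C1qb went from 26.6 ± 3.25 to 1.63 ± 0.392 CPM. The part of macrophage transcripts in the EC result was not tested. Since 3 of the mice also gave macrophage libraries, the EC values are not fully separate from those that chose the genes.

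Over all 8 groups, with each library scaled to its own total, the order of levels differed between the genes. Cd5l was highest in control macrophages, then in Smad4 controls, and then in control livers, whose range overlapped that of Smad4 cKO macrophages, which in turn overlapped HSC-KO macrophages. For Fabp7 the 2 control macrophage groups overlapped and were followed by control livers and control ECs, and the 4 mutant groups overlapped at or near 0. Fam167a had the same leading groups, with control macrophages of the HSC-KO experiment (80.4 to 103 CPM) above those of the Smad4 experiment (40.4 to 48.4 CPM), and below control livers the remaining 5 groups ran into each other. Dmpk stood apart in that HSC-KO macrophages, at 1.06 ± 1.14 CPM, were the lowest of the 8 groups, below HSC-KO ECs (3.43 ± 0.634 CPM) with no overlap. Treml4 was highest in Smad4 cKO macrophages (736 ± 90.2 CPM), overlapping the Smad4 controls but not the controls of the HSC-KO experiment, which overlapped the Smad4 controls in turn, with HSC-KO macrophages 4th and all liver and EC libraries below 6 CPM.

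The genes beside the 5 did not all follow them. The 2 nearest protein-coding genes on each side were taken, 20 in all, of which 14 entered the interaction fit and 5 of these were called (2.61% of the 18149 genes tested were). Fcrls, an Fc receptor-like gene 94143 bases from Cd5l, moved against it, from 0.424 ± 0.321 to 371 ± 137 CPM in HSC-KO macrophages (log2 fold change 9.74, adjusted p = 9.03e-05) and from 0.503 ± 0.065 to 8.19 ± 3.61 CPM in Smad4 cKO macrophages (log2 fold change 4.02, adjusted p = 0.00104), while Fcrl1 on the other side was not called in either. Beside Fam167a, the B cell kinase Blk, the transcription factor Gata4 and Mtmr9 were tested and not called in either macrophage mutant, and Tdh was too low to be tested.

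Dmwd, which ends 1073 bases before Dmpk on the same strand, went from 97.4 ± 3.94 to 1.03 ± 1.07 CPM in HSC-KO macrophages (log2 fold change -6.55, standard error 0.78, adjusted p = 0.00135) and from 84.1 to 22.5 CPM in Smad4 cKO macrophages (-1.90, standard error 0.16, adjusted p = 0.000816). Like Dmpk it fell further in HSC-KO macrophages (interaction -4.61, standard error 0.77, adjusted p = 0.00994). In HSC-KO ECs it was lower as well (log2 fold change -1.26, adjusted p = 0.0072), but in HSC-KO livers, at 20.6 CPM against 20.3 CPM in controls, it was not called (log2 fold change 0.02, adjusted p = 0.98). Six5, a homeobox gene 773 bases past Dmpk, fell in HSC-KO macrophages (log2 fold change -3.17) and was not called in Smad4 cKO macrophages (-0.93), with an interaction of -2.20 (standard error 0.53, adjusted p = 0.0493).

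Smpdl3a, a phosphodiesterase gene 5885 bases past Fabp7, fell in both mutants but kept more of its level, at 1337 ± 160 and 107 ± 10.2 CPM in the HSC-KO experiment and at 1342 ± 234 and 414 ± 32.7 CPM in the Smad4 experiment (log2 fold changes -3.65 and -1.70, adjusted p = 3.39e-05 and 0.000928). At the Trem cluster, B430306N03Rik fell in HSC-KO macrophages (log2 fold change -2.34, adjusted p = 0.000307), in Smad4 cKO macrophages (-1.16, adjusted p = 0.00406) and in HSC-KO livers (-2.88, adjusted p = 0.0023). Treml2 fell in both macrophage mutants (-2.60 and -2.27, adjusted p = 0.0074 and 0.00733). The neighbours of Treml4 on that side were thus called lower in Smad4 cKO macrophages, in which Treml4 was not lower.

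**Figure D5:**
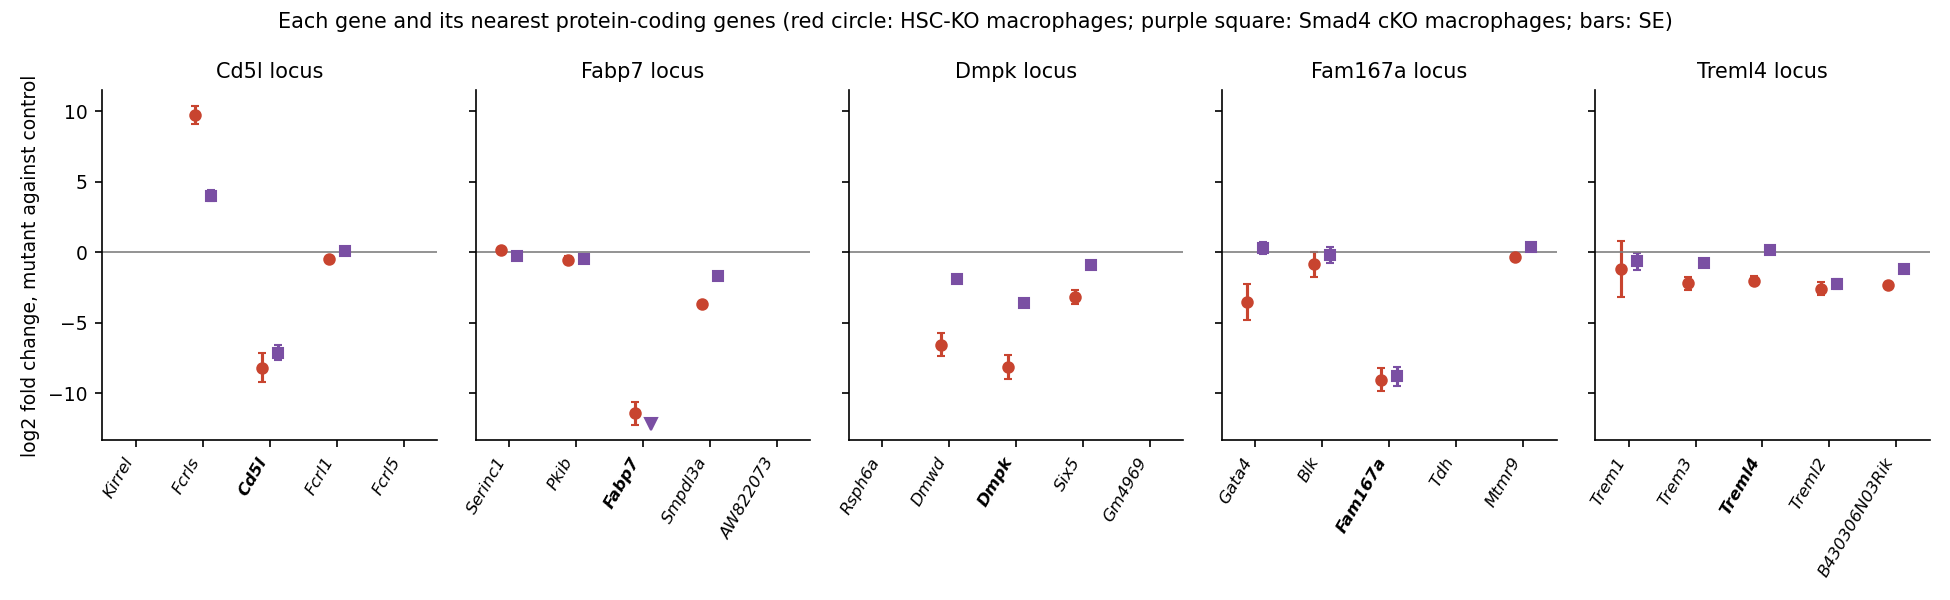
Log2 fold change with standard error in HSC-KO macrophages (red circles) and Smad4 cKO macrophages (purple squares; triangle, bound for Fabp7) for each of the 5 genes (bold) and its 2 nearest protein-coding genes on each side, in genomic order and not to scale, with no symbol where a gene was too low to be tested. Dmwd beside Dmpk falls with it in both mutants, and Fcrls beside Cd5l rises in both.

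Relatives of the 5 genes were taken by family. Of 6 other intracellular lipid-binding protein genes tested in HSC-KO macrophages, Fabp1 was called lower (17.2 ± 4.34 to 3.72 ± 2.10 CPM, log2 fold change -2.21, adjusted p = 0.00987) and 5 were not called, and none of 5 was called in Smad4 cKO macrophages (0 with edgeR at the same thresholds). Among 5 kinases related to Dmpk, Cit was called higher in Smad4 cKO macrophages (log2 fold change 1.14, adjusted p = 0.0394), and Rock1, Rock2, Cdc42bpa and Cdc42bpb were called in neither mutant. Of the scavenger receptors with cysteine-rich domains, Cd163, Marco and Msr1 fell in HSC-KO macrophages (log2 fold changes -1.77, -6.70 and -1.39), and in Smad4 cKO macrophages Marco alone was called (log2 fold change -1.48, adjusted p = 0.0173). Of 5 Trem family genes, Trem3 and Treml2 were called lower and 1 higher in HSC-KO macrophages, and Treml2 alone was called, lower, in Smad4 cKO macrophages. The log2 fold changes in HSC-KO macrophages were -2.22 for Trem3 and -2.60 for Treml2, and in Smad4 cKO macrophages -2.27 for Treml2. Trem2, a lipid receptor of this family, was the one that rose in HSC-KO macrophages from 90.9 ± 25.9 to 309 ± 106 CPM (log2 fold change 1.77, adjusted p = 0.00606) and was at 74.6 ± 14.7 and 75.4 ± 27.9 CPM in the Smad4 experiment. Fam167b was called in neither.

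The genes with the most similar pattern were sought among 20858 genes by Pearson's r of log2 CPM. This is a description, since libraries of the same group share their cell type or tissue and their preparation. Over all 24 libraries the first was Vsig4 for Cd5l (0.967), Cxcl13 for Fabp7 (0.968), the sialyltransferase gene St3gal5 for Dmpk (0.918), Fabp7 for Fam167a (0.960) and the receptor gene Pira2 for Treml4 (0.995). Over the 12 macrophage libraries it was Icos for Cd5l (0.988), Folr2 for Fabp7 (0.993), Vsig4 for Dmpk (0.997, ahead of the VE-cadherin gene Cdh5 at 0.991), Cd5l for Fam167a (0.987) and, for Treml4, the antisense gene Fcnaos (0.985) ahead of ficolin A, Fcna (0.974). Over the same 12 libraries, r was 0.980 between Cd5l and Fabp7, 0.987 between Cd5l and Fam167a and 0.982 between Fabp7 and Fam167a. Treml4 correlated with these 3 at 0.442 to 0.577 and with Dmpk at 0.861, so that Dmpk lay between the 3 genes and Treml4.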

How the data were processed

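The authors sequenced RNA from sorted macrophages, sorted ECs and livers, used HISAT2 for alignment to mm10 (GRCm38) and featureCounts for counting, and deposited 4 tables of whole-number counts for 48820 entries each, with no normalization. Versions, the annotation release and the use of strand are not given in the sources used here. The library kit is named differently in the labels (Hieff NGS) and in the methods (Illumina). All 24 columns, by name, matched a labelled sample.

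Groups came from the labels. In R 4.3.3, low genes of each table were removed (edgeR 4.0.16, filterByExpr, at least 10 counts and a total of 15), libraries were scaled by TMM, and each table was fitted with edgeR's quasi-likelihood test over 6 libraries, without covariates, and 12 macrophage libraries were fitted together for the interaction and for the comparisons of control with control and mutant with mutant. Adjusted p are Benjamini-Hochberg values over all genes tested, a gene was called at an adjusted p below 0.05 and a log2 fold change above 1 in size, and the standard error is the log2 fold change over the square root of F. CPM use TMM factors, or the library total where levels are given per kilobase or across tables, and a group at 0 was set at 3 counts per library for a bound, which covers counting error only. Fits over both experiments used symbols named once. The alternatives were DESeq2 1.42.0, its size factors, library size alone, 2 other filters, each library left out, the replicate number as a block, Xist as a covariate and a pan-macrophage denominator. The liver comparison, the interaction and the comparisons of control with control and mutant with mutant had been planned as tests, but for the 5 genes they are given without p, because the choice of genes used these libraries. The fits were tested on simulated data. Genes named are the 5, their nearest neighbours and relatives, the genes most like them in pattern, and members of the gene lists, some of which were picked after their values were seen. The 5 genes and the lists were chosen with earlier results of these data known. Motifs were searched in the 250 bases before the start site of the promoter table, which for Dmpk and Treml4 lies inside the RefSeq gene record. Python 3.11.15 drew the figures.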

Additional observations from a re-analysis of the deposited data

Results flagged for a closer look

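The log2 fold changes in HSC-KO and Smad4 cKO macrophages differed in the interaction fit over 12 libraries by -4.48 for Dmpk and by -2.14 for Treml4, with the lower value in HSC-KO macrophages. Both depths of loss chose these genes, so the values are a description and not a result of the test.

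Of the 14 neighbours tested, 5 passed the interaction test (edgeR's quasi-likelihood test), as did 2.61% of all genes tested. The difference was -4.61 for Dmwd and -2.20 for Six5, both beside Dmpk, -1.90 for Smpdl3a beside Fabp7, -1.13 for B430306N03Rik near Treml4 and 5.76 for Fcrls beside Cd5l. The control groups of the 2 experiments are different mice, so the experiment is part of each of these differences.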

How the results depend on the processing

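In HSC-KO livers 3 of 5 genes lay past the thresholds of adjusted p and fold, beside 248 of all genes (1.45%), and 5 with DESeq2, beside 467 of all genes. It was 2 to 4 with a library left out, and nothing is read from these numbers, since liver values chose the genes. The number called lower in ECs was 4, and 3 without any 1 library, and no weight is put on it. All 5 genes in HSC-KO and 4 of 5 in Smad4 cKO macrophages stayed more than 2-fold lower in every setting, with no test.

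Direction turned in these differences. In ECs Fam167a ranged from -1.17 to 0.24 with a library left out. In the interaction Fabp7 ranged from -0.32 to 5.83 and Fam167a from -2.14 to 0.71, and between the mutants Fam167a ranged from -1.09 to 1.76. Between the controls Treml4 ranged from -0.26 to 0.031 and Dmpk, near 0, from -0.044 to 0.076, while Dmpk was -0.030 with DESeq2 or its size factors, -0.018 with all genes with a count, -0.0049 with the replicate block and -0.092 with Xist as a covariate.

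Replicate numbers did not pair the libraries, since in no comparison did all 3 same-numbered pairs correlate above 0.1 (the range was -0.11 to 0.16). With the replicate block, 3 of 5 genes were called lower in ECs, without Treml4 (edgeR's adjusted p = 0.0653). The block gave 271 called genes in livers against 425, and DESeq2 gave 794, as it gave 1030 against 473 in the interaction.

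The most similar genes depended on the measure. With Spearman's rho, 7 of the 15 named over 24 libraries and 2 of the 15 over the macrophage libraries stayed. With library size alone the median log2 fold change of all genes in ECs was 0.30, against 0.0048, and 72.5% of the calls were higher, against 56.1%, and in Smad4 cKO macrophages the median was 0.19, against 0.04, with 62.4% of calls higher, against 50.9%. Remainders of 0 to 40 counts set the limit for Fabp7 and Fam167a.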
